A study of Homo sapiens with 6 samples.

Results

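This account describes the SF3B4 eCLIP peaks that lie at the 3' ends of short introns in HEK293T cells. A peak was a member when its midpoint lay 1 to 60 nt upstream of the nearest annotated 3' splice site of its gene and the shortest annotated intron ending at that site was 250 nt or less. Of 3660 SF3B4 peaks, 864 (23.6%, 95% Wilson interval 22.3 to 25%) met the rule, each at a splice site of its own and together in 577 genes. Another 951 peaks lay in the same window of introns over 250 and up to 1000 nt and 1020 in that of introns over 1000 nt. The rule used the position of the peak and the annotation, and none of the values the authors gave to the peaks.

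HEK293T cells are an established line of human embryonic kidney origin that expresses SV40 large T antigen. In eCLIP, RNA is crosslinked to protein in the cell, a chosen protein is immunoprecipitated, and the RNA fragments that come with it are set against input RNA. The 6 libraries were 2 with an antibody against SF3B4, 2 of input with no antibody and 2 with an anti-HA antibody for G4PID, an engineered ligase that attaches biotin near G-quadruplexes. The labels give 1 treatment text for all samples, in which cells received a plasmid for G4PID or for the untargeted ligase miniTurboID, were cultured for 24 h and were labelled with 500 µM biotin for 30 min. For the cells used with the SF3B4 antibody and for input, transfection and labelling cannot be told from it. The data were 1 list of peaks per antibody with no value per library. The spread between replicates and the read depth are therefore unknown, and every interval and p-value below treats peaks or splice sites as units and covers counting error only.

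SF3B4 is a subunit of SF3b, the part of the U2 small nuclear ribonucleoprotein (snRNP) that holds the branch point region while the spliceosome assembles. It contacts the intron just upstream of the branch point adenosine, which usually lies a short distance before the 3' splice site. Short introns are typical of compact, GC-rich genes. In them the 5' splice site, branch point and 3' splice site lie close together, and the splice sites are often paired across the intron instead of across the exon.

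The introns printed here show where the peaks lay along the intron. They are introns of leading members for which the sequence could be read from annotated transcripts, given 5' to 3' on the gene's strand with the bases inside the deposited peak in capitals. EEF1A1 encodes a translation elongation factor, and its intron 4 (hg38 chr6:73518849-73518931, minus strand) held the member with the highest log2 fold over input, 6.96. RPL6 encodes a protein of the large ribosomal subunit, and intron 2 (chr12:112408339-112408419, minus strand) followed at 6.65. Intron 6 of the RNA helicase gene DDX5 (chr17:64503349-64503429, minus strand) reached 6.09, and intron 2 of HNRNPA2B1, a gene for an RNA-binding protein of the nucleus (chr7:26197733-26197830, minus strand), reached 5.87. These peaks lay wholly inside the intron.
EEF1A1 intron 4: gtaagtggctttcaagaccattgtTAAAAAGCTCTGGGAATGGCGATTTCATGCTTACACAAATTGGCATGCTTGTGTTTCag
RPL6 intron 2: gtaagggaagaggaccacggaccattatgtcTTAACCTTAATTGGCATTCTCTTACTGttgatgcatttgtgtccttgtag
DDX5 intron 6: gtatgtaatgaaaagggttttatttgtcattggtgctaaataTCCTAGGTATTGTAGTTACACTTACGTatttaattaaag
HNRNPA2B1 intron 2: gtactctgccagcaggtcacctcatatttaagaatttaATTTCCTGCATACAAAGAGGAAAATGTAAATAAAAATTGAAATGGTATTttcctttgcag

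The capitals of EEF1A1, RPL6 and DDX5 take in a CTTAC, a match to the branch-site-like motif CTNAC searched on the sense strand 15 to 60 nt upstream of the 3' splice site. Counting the last intron base as 1, its A lay 27 nt upstream in EEF1A1, 27 nt in RPL6 and 16 nt in DDX5. The HNRNPA2B1 intron has no CTNAC in that window, which says only that these letters are not there.

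A second set of introns adds members whose peak ran on into the exon, and members of 2 genes with several peaks, RHOT2 and ACADVL. ADAM15 encodes a metalloprotease of the cell surface, and its intron 9 (chr1:155056250-155056385, plus strand) had a log2 fold of 6.07. PAN2 encodes a deadenylase that shortens mRNA tails, and its intron 13 (chr12:56323914-56324036, minus strand) had 5.90. RHOT2 encodes a GTPase of the outer mitochondrial membrane, and its intron 9 (chr16:670774-670891, plus strand) had 4.09, with a peak that ended inside the intron. ACADVL encodes the very long-chain acyl-CoA dehydrogenase of mitochondria. Its intron 15 (chr17:7224070-7224145, plus strand) had 4.17, and its intron 19 (chr17:7224715-7224808, plus strand) had 3.27 and lay within the peak from end to end.
ADAM15 intron 9: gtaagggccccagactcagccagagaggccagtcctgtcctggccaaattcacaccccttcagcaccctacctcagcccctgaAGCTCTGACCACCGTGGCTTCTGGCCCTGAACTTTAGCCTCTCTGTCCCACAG
PAN2 intron 13: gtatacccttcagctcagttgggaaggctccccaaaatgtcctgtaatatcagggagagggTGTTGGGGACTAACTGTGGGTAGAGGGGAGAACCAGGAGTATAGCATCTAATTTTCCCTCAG
RHOT2 intron 9: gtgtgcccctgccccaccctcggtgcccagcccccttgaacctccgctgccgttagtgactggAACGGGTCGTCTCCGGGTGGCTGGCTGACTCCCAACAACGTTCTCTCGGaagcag
ACADVL intron 15: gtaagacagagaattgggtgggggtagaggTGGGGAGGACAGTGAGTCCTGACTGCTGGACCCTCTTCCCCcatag
ACADVL intron 19: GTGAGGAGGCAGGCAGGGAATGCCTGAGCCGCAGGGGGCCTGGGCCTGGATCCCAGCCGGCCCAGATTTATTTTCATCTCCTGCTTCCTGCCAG

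In this set the CTNAC matches also lay in the peak. They were CTGAC in ADAM15 (A 46 nt upstream), in RHOT2 intron 9 (28 nt) and in ACADVL intron 15 (25 nt), and CTAAC in PAN2 (50 nt). ACADVL intron 19 had no match. A match inside the peak follows largely from the rule. The base 21 nt upstream was covered by 90.9% of members and that 44 nt upstream by 91.0%. The printed introns hold matches more often than all readable members, of which 32.5% had one. Not printed were RPL17 intron 5 (log2 fold 6.53) and RMND5B intron 7 (5.97), readable but without a match. Readable RHOT2 introns 13, 15, 16 and 17 and ACADVL introns 4, 9 and 20 had none either.

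Nearly all members lay in coding parts of protein-coding genes. Of the 864, 833 (96.4%) lay in protein-coding genes and 807 (93.4%) in introns with coding sequence on both sides. Neither share is particular to members. Of the 6778 short introns without a peak in genes with an SF3B4 peak, 6437 had coding sequence on both sides. By gene type, 1874 genes of any type had an SF3B4 peak, beside 1761 protein-coding genes with one. Peaks were also assigned to protein-coding genes first. Their introns ran from 54 to 250 nt with a median of 132.5 nt (quartiles 88 and 188), and 305 (35.3%) were 100 nt or less. The shortest was in SNHG5, a non-coding host gene of small nucleolar RNAs, at 54 nt with a log2 fold of 4.27. It was followed by an intron of the plexin gene PLXNA1 (65 nt, 3.81), introns of the RECQL4 helicase gene (65 nt, 3.23; 67 nt, 3.98) and one of FBXL6, an F-box protein gene (68 nt, 3.47). At the upper limit, introns of MAN2C1 and CPNE1 had 250 nt, with log2 folds of 3.27 and 5.64. Just outside it lay the intron of PANK4, 1 nt longer, with 3.58 and that of NT5C, of 252 nt, with 4.52.

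The window of the rule takes in the stretch where the branch point region usually lies. The midpoint was a median of 28 nt upstream of the 3' splice site (quartiles 16.8 and 36), and 460 members (53.2%, 49.9 to 56.5%) had it 20 to 40 nt upstream. Another 105 (12.2%) had it 1 to 9 nt upstream and 140 (16.2%) 41 to 60 nt upstream. Because all midpoints lie within 60 nt by the rule, only their spread inside that window is described, and a highest cover near the middle of it follows from the rule in every length class. The base covered by the most members was 33 nt upstream, where 98.5% of peaks were present, against 98.2% at 36 nt for introns over 250 and up to 1000 nt and 99.3% at 37 nt for introns over 1000 nt. At the first exon base the cover was 52.3%, 50.5% and 54.5% in the same order, and at 100 nt upstream it was 3.01%, 7.57% and 5.29%. For the 305 members in introns of 100 nt or less, that last position is the first intron base or lies upstream of the intron.

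**Figure D1:**
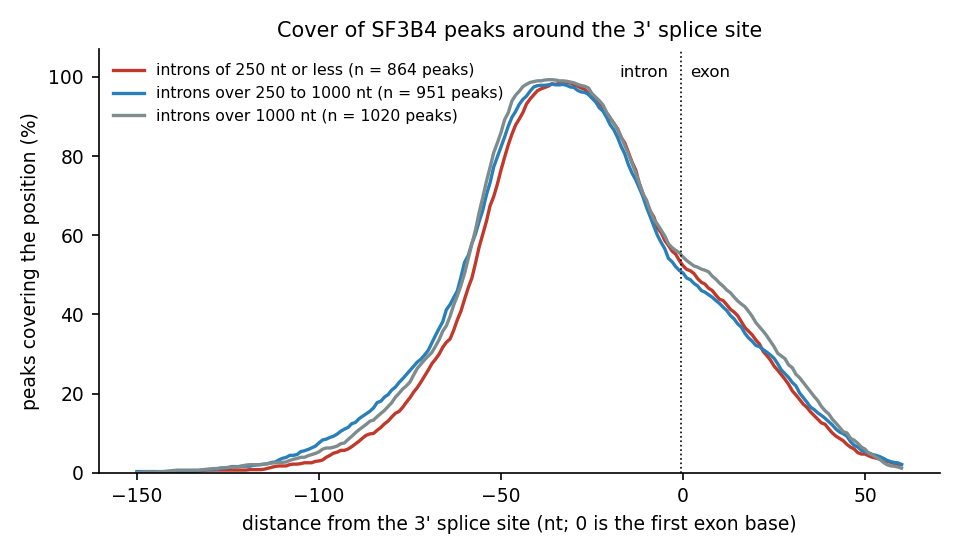
Share of peaks covering each position (%, vertical axis) against distance from the 3' splice site (nt, horizontal axis, 0 is the first exon base), with 1 line for each intron length class. The highest cover of short introns is at 33 nt upstream, of introns over 250 and up to 1000 nt at 36 nt and of introns over 1000 nt at 37 nt. Further upstream the line of short introns is lower, at 57 nt with 53.0% against 60.4% and 61.4%, and elsewhere the 3 lines run close together.

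Short and longer introns did not differ detectably in the share of midpoints 20 to 40 nt upstream or of peaks that reached the exon. These shares need not register a small shift of the whole peak. The median midpoint was 28 nt upstream in members and 30 nt at longer introns. The upstream edge lay a median of 57 and 60 nt upstream, and neither difference was tested. The share of midpoints 20 to 40 nt upstream was 53.2% of 864 members and 52.1% of the 1971 peaks at longer introns (odds ratio 1.05, two-sided Fisher's exact test, adjusted p = 0.680). The peak reached past the 3' splice site into the exon in 452 members (52.3%) and in 1036 peaks at longer introns (52.6%; odds ratio 0.990, Fisher's exact test, adjusted p = 0.935). P-values of the 8 planned comparisons were adjusted together by the Benjamini-Hochberg method.

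What differed by construction was how much of the intron a peak took up. Members had a median width of 67 nt (quartiles 43 and 90) and covered a median of 40.2% of their intron, against 11.1% for introns over 250 and up to 1000 nt and 2.22% for introns over 1000 nt. In 297 members (34.4%) the peak covered the larger part of the intron. In 20 (2.31%) it covered all of it and ran past the 5' splice site, as in PLXNA1, in the 67 nt intron of RECQL4 and in ACADVL intron 19. The upstream edge of the peak lay a median of 57 nt upstream of the first exon base. On the same count of nt upstream, the downstream edge had a median of -3 nt. Here 0 is the first exon base, and a negative value lies further inside the exon.

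Among members, the position followed the length of the intron at its short end. The 121 members in introns of 54 to 80 nt had their midpoint a median of 20 nt upstream, while medians in the classes over 80 nt lay between 29 and 30 nt. In the shortest class 68.6% of peaks reached the exon, against 47.7 to 51.3% in the other classes. The peak covered a median of 65.8% of the intron in the shortest class and 24.7% in introns over 200 nt. The authors' log2 fold was alike along the length: medians of the 5 classes lay between 3.80 and 3.97, and the highest value of each between 6.05 and 6.96.

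The deposited log2 fold of members ran from 3.0 to 6.96 with a median of 3.88 (quartiles 3.50 and 4.53), beside a median of 3.93 for the whole SF3B4 list. It was above that list median in 408 members (47.2%) and in 985 peaks at longer introns (49.97%), a difference that did not pass the threshold (odds ratio 0.896, two-sided Fisher's exact test, adjusted p = 0.357). It passed with midpoints limited to 10 to 60 nt upstream (0.817, adjusted p = 0.0423) and with all transcripts (0.837, adjusted p = 0.0406), and turned to 1.05 with short introns up to 150 nt and to 1.10 with 1 peak per gene, by the same exact test. The deposited −log10 p-value of members ran from 5.08 to 400, and 74 members (8.56%), the 15 with the highest fold among them, shared the value 15.7. The maximum of 400 was the same in each length class. Whether 15.7 and 400 are limits of the authors' calculation cannot be told here, and this value does not rank those 15. The fold is the authors' own value and is used here to rank peaks inside this list.

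Members with a high fold were narrow and intronic. When the members were divided into 4 groups at the quartiles of fold, the median width went from 76 nt in the lowest group through 74 and 61 nt to 48 nt in the highest. The share of peaks that reached the exon went from 74.2% through 64.3% and 46.8% to 25.8%. The midpoint moved from a median of 24 nt to 33 nt upstream, and the share with a midpoint 20 to 40 nt upstream was 65.9% in the highest group against 47.9% in the lowest. Fold, width and position come from the same peak calls, so these are descriptions without a test. The GC content of the readable introns moved with them, from a median of 60.4% in the lowest group to 54.6% in the highest.

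**Figure D2:**
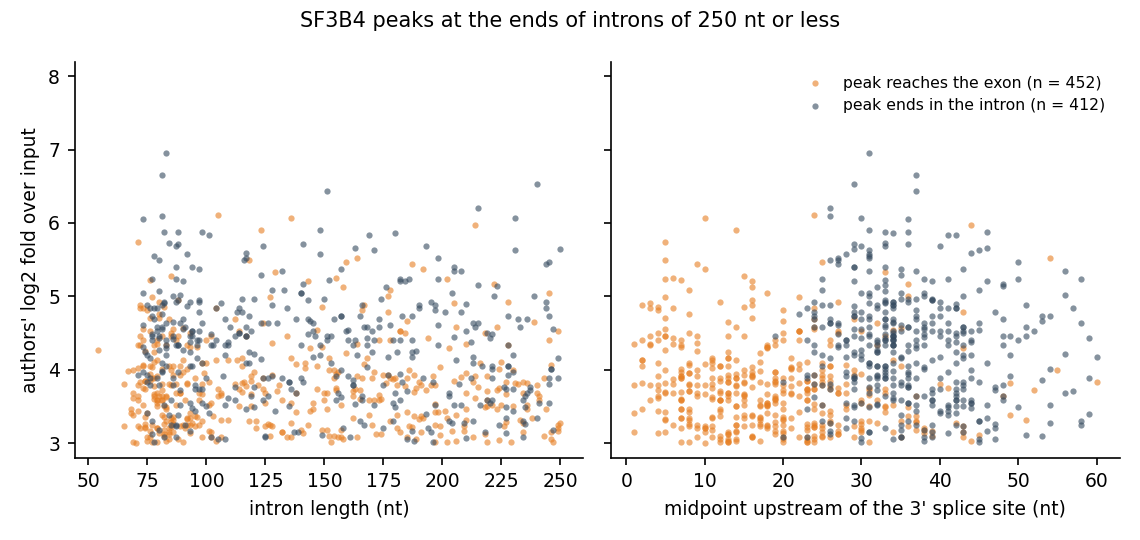
The authors' log2 fold over input (vertical axis) of each of the 864 members against intron length (nt, left) and against the distance of the peak midpoint from the 3' splice site (nt upstream, right). Orange points are the 452 peaks that reach the exon and dark points the 412 that end in the intron. Points of high fold are mostly dark: 25.8% of those in the highest group, at 4.53 and above, reach the exon.

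The ranking by fold was led by EEF1A1, RPL6 and RPL17. Besides EEF1A1, RPL6, DDX5, HNRNPA2B1, ADAM15 and PAN2, the first 15 genes were joined by RPL17, another large-subunit protein gene (log2 fold 6.53, intron of 240 nt, midpoint 29 nt upstream), and SRCAP, the ATPase of a chromatin remodelling complex (6.44, 151 nt, 37 nt upstream). ATP5F1B, a subunit gene of the mitochondrial ATP synthase, had 6.20 (215 nt, 26 nt upstream). HMGB1, which encodes a chromatin protein, had 6.11 in an intron of 105 nt that the annotation does not place between coding exons.

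The DNA polymerase gene POLE had 6.05 in an intron of 73 nt, the shortest among these leading members, with the midpoint 36 nt upstream. RMND5B, a gene of a ubiquitin ligase complex, had 5.97 (214 nt, 44 nt upstream). The RNA-binding protein genes HNRNPA1 (5.90, 148 nt, 31 nt upstream), KHSRP (5.88, 82 nt, 33 nt upstream) and HNRNPA3 (5.88, 88 nt, 46 nt upstream) completed the set. Their introns thus spanned the range of lengths, from 73 nt in POLE to 240 nt in RPL17. In 11 of the 15 the peak ended inside the intron.

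The share of short introns that carried a peak was 11.3% (864 of 7642 annotated 3' splice sites of short introns in genes with an SF3B4 peak; 10.6 to 12%). Over all annotated 3' splice sites of those genes it was 9.4% (2835 of 30159), and for introns over 250 nt it was 8.75% (1971 of 22517). Inside genes the difference was not detectable: the odds ratio was 1.04 (n = 1305 genes, two-sided Cochran-Mantel-Haenszel chi-square test stratified by gene, adjusted p = 0.602). The direction depends on where short ends. With a limit of 150 nt the odds ratio was 0.843 (adjusted p = 0.00846), with 350 nt it was 1.14 (adjusted p = 0.0160), and with all annotated transcripts in place of the basic set it was 1.22 (adjusted p = 5.38e-05), all by the same chi-square test.

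Finer length classes, chosen after the data were seen, showed no steady trend across the short introns. A peak was present at 13.9% of sites with introns of 80 nt or less, at 9.46% for over 80 to 100 nt, at 8.79% for over 100 to 150 nt and at 13.8% for over 150 to 250 nt. Beyond the limit it was 12.8% for over 250 to 350 nt, 10.2% for over 350 to 1000 nt and 7.48% over 1000 nt. Against the other sites of the same genes, the classes of 80 nt or less (odds ratio 1.28, adjusted p = 0.0294 over 7 classes, Cochran-Mantel-Haenszel chi-square test), over 150 to 250 nt (1.34, adjusted p = 5.63e-05) and over 250 to 350 nt (1.29, adjusted p = 0.00309) had a peak more often. The classes over 80 to 100 nt (0.823, adjusted p = 0.0294), over 100 to 150 nt (0.756, adjusted p = 0.00309) and over 1000 nt (0.868, adjusted p = 0.00553) had one less often by the same chi-square test. In introns of 80 nt or less the window of 60 nt spans most of the intron, and 119 annotated short introns under 40 nt, none with a peak, are in the first class. Without them a peak was present at 121 of 751 sites (16.1%) of that class.

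Short introns with a peak were often introns that the annotation also records as retained. In 399 of the 864 members (46.2%, 42.9 to 49.5%) the intron lay wholly inside an exon of another annotated transcript of the gene. Among the 6778 short introns of the same genes without a peak this held for 1636 (24.1%, 23.1 to 25.2%). Inside genes the odds ratio was 2.16 (n = 362 genes, Cochran-Mantel-Haenszel chi-square test, two-sided, adjusted p = 2.15e-15). With strata of gene and length class together and without introns under 40 nt, added after the data were seen, it was 2.36 (same chi-square test, adjusted p = 3.97e-13).

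The transcript that held the intron was of the retained-intron type for 339 of the 399 members (85.0%), protein-coding for 49 (12.3%) and of the nonsense-mediated decay type for 24 (6.02%), with some introns in more than 1 type. With the retained-intron type alone, also added after the data were seen, the odds ratio was 2.27. The annotation is not a measurement in these cells, and the retention of these introns in HEK293T cells was not analysed here. Members in annotated retained introns and other members had like median folds, 3.88 and 3.91, with upper quartiles of 4.41 and 4.58. Their median intron length was 125 nt and 140 nt. From the lowest to the highest of the 4 groups of fold, the share annotated as retained was 51.2%, 45.2%, 50.2% and 37.8%. It was thus lowest in the group of highest fold, which was not tested.

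Longer introns with a peak were annotated as retained less often, in 364 of 1971 (18.5%, 16.8 to 20.2%; odds ratio 3.79 against members, two-sided Fisher's exact test, adjusted p = 1.71e-49). Length moved with this share whether or not a peak was present. With a peak it was 54.5% for introns of 80 nt or less, 46.2% for over 80 to 100 nt, 43.0% for over 100 to 150 nt, 45% for over 150 to 250 nt, 41.1% for over 250 to 350 nt and 6.27% over 1000 nt. Without a peak it was 45.5%, 21.8%, 20.1%, 22.4%, 20.2% and 2.31% in the same classes. Of the 119 introns under 40 nt, which held no peak, 108 were annotated as retained, and without them the share for 80 nt or less without a peak was 37.0% (233 of 630). The gap between introns with and without a peak was thus present on both sides of the 250 nt limit and smallest, in proportion, at 80 nt or less, also without the introns under 40 nt.

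**Figure D3:**
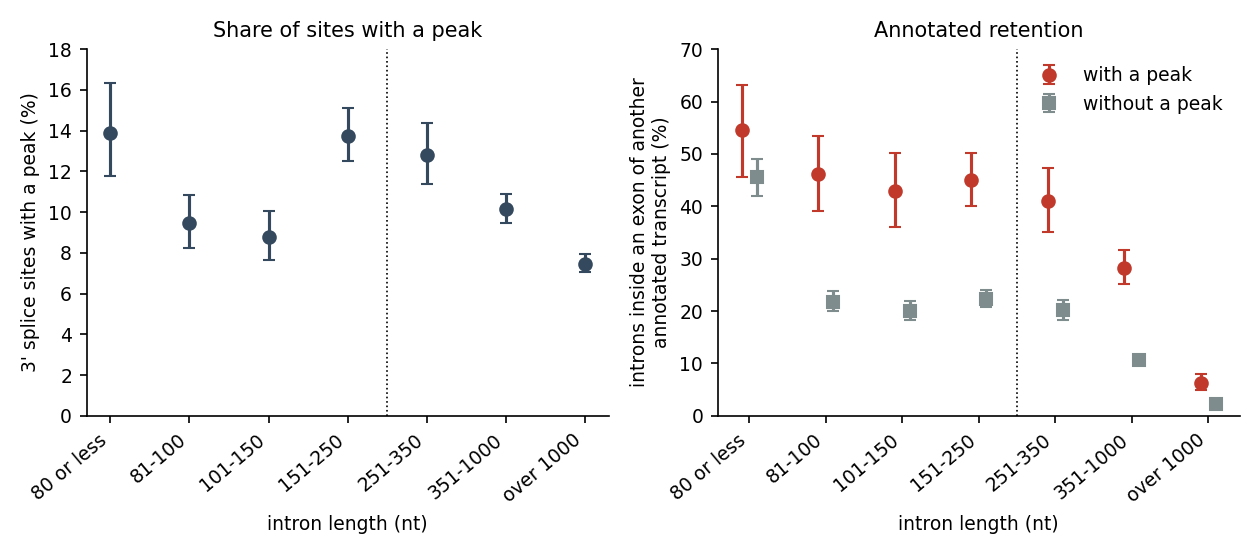
Left, share of annotated 3' splice sites with a peak (%) by intron length class (nt); right, share of introns inside an exon of another annotated transcript (%) with a peak (red circles) and without one (grey squares), bars being 95% Wilson intervals and the dotted line the 250 nt limit. The share with a peak is 13.9% at 80 nt or less, 8.79% over 100 to 150 nt and 13.8% over 150 to 250 nt, and annotated retention is higher with a peak than without in each of the 7 classes.

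Compared inside genes, peaks were less often at the last intron of a transcript. Last introns made up 61 members (7.06%, 5.54 to 8.97%) and 578 short introns without a peak (8.53%, 7.89 to 9.22%), with an odds ratio inside genes of 0.566 (n = 273 genes, Cochran-Mantel-Haenszel chi-square test, two-sided, adjusted p = 0.00157). First introns made up 35 members (4.05%) and 302 of the introns without a peak (4.46%). The exon before and the exon after a member had a median of 111 nt each, against 117 and 121 nt around short introns without a peak. Limited to members with a log2 fold of at least 4 and a −log10 p-value of at least 10, the odds ratio of last introns was 0.660 and no longer passed the threshold (same chi-square test, adjusted p = 0.446). The unstratified shares then lay the other way, at 20 of 203 (9.85%) with a peak and 219 of 2492 (8.79%) without.

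The sequence of the whole intron could be read for 408 members (47.2%), 399 of them annotated as retained, because it comes from transcripts that cover the intron. Their median GC content was 57.9% (quartiles 47.9 and 64.3), beside 59.8% for 1765 readable short introns without a peak. Among longer introns with a peak it was 53.3% for introns over 250 and up to 1000 nt, of which 324 of 951 could be read. For those over 1000 nt it was 46.0%, and only 77 of 1020 could be read. The stretch between 3 and 22 nt upstream was a median of 75% pyrimidine both with and without a peak. CTNAC was present 15 to 60 nt upstream in 142 of 437 readable members (32.5%) and in 521 of 1829 short introns without a peak (28.5%). Inside genes this difference was not detectable (odds ratio 1.17, n = 162 genes, Cochran-Mantel-Haenszel chi-square test, two-sided, adjusted p = 0.509).

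Splice site dinucleotides that could be read were nearly all GT at the start and all AG at the end. All 456 members whose last bases could be read ended in AG, and 436 of 441 (98.9%) began with GT. The other 5 (1.13%) began with GC, beside 39 of 2415 (1.61%) of all readable short introns of genes with a peak. They lay in KLHL17 (76 nt, log2 fold 5.22), MAN2C1 (81 nt, 3.58), ACADVL (95 nt, 3.88), HGS (76 nt, 4.70) and SARS2 (87 nt, 3.81). The start GTATCC, which is common in the minor class of introns spliced by the U12-type spliceosome, occurred in 3 of 438 members (0.685%) beside 13 of 2415 (0.538%). Those introns were in ZCCHC8 (115 nt, 4.17), TAF1C (143 nt, 3.25) and GNL3 (240 nt, 3.34), and were picked out after their values were seen, as were those with GC. ATATCC, the other such start, occurred in none of the 438, which allows a share of up to 0.869%.

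Several members were in introns that encode small nucleolar RNAs. Small nucleolar RNAs (snoRNAs), which guide the modification of ribosomal RNA and are cut from spliced introns, lay inside 19 member introns (2.20%, 1.41 to 3.41%), against 18 of 6778 short introns without a peak (0.266%, 0.168 to 0.419%). The difference was not tested, and 15 of the 19 introns were at least 200 nt long. In 0 of the 19 did the peak overlap the snoRNA inside the intron. Counting annotated small RNA genes of any kind on the same strand, also those not wholly inside the intron, 854 of the 864 members overlapped none. The host with the highest fold was ATP5F1B (SNORD59A, 6.20), followed by NCL, which encodes nucleolin (SNORD82, 5.20), RBMX (SNORD61, 4.93), C6orf48 (SNORD48, 4.90) and the ribosome biogenesis gene PPAN (SNORD105, 4.88). RPL7A (SNORD36B) had 4.18, and the non-coding host gene SNHG1 had 3.96 at SNORD30 and 3.81 at SNORD26.

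Many genes held more than 1 member. Of the 577 genes, 411 held 1 member, 96 held 2, 39 held 3 and 31 held 4 or more, so that 453 members (52.4%) shared a gene with another. Such members share the RNA of that gene and are not independent of each other. In 88 pairs the members were in neighbouring introns, which involved 163 members (18.9%) in 69 genes. CAD, the gene of the enzyme that starts pyrimidine synthesis, had the most, with a peak at 8 of its 26 short introns and log2 folds from 3.17 to 5.09 (median 3.80).

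RHOT2 had a peak at 7 of 14 short introns. In order along the gene, the log2 fold was 3.74 at intron 7, 4.09 at intron 9, 4.84 at intron 12, 3.80 at intron 13, 4.40 at intron 15 and 3.09 at introns 16 and 17. Their lengths lay between 78 and 136 nt, and the midpoints 18 to 35 nt upstream except at intron 17, where it was 9 nt. The highest value was thus at the shortest of these introns, of 78 nt.

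DDX5 had a peak at 5 of 8 short introns. The log2 fold was 6.07 at intron 5, 6.09 at intron 6, 5.16 at intron 9, 4.87 at intron 10 and 5.00 at intron 12, with midpoints 26 to 38 nt upstream. The lowest of these was above the upper quartile of all members, 4.53. ACADVL had a peak at 5 of 13, with 3.85 at intron 4, 3.88 at intron 9, 4.17 at intron 15, 3.27 at intron 19 and 4.88 at intron 20, and all 5 introns were annotated as retained. PPAN had 5 of 9 with folds from 3.10 to 4.88, and none of them was annotated as retained. The nuclease gene MUS81 had 5 of 11, with folds from 3.01 to 3.91. EIF4A2, a translation initiation helicase gene, had the largest part of its short introns among the 31 genes with 4 or more members, 4 of 5, with folds from 3.97 to 4.69 and all 4 annotated as retained.

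The other genes with 5 or more members had between 13 (GBA2) and 34 (CPSF1) short introns. CPSF1, a subunit gene of the complex that cleaves pre-mRNA at the polyadenylation site, had 6 of 34 (log2 fold 3.22 to 4.31), and EIF4G1, the scaffold of the cap-binding complex, had 5 of 21 (3.09 to 5.66). GIGYF1 had 5 of 23 (3.51 to 5.20), NEURL4 had 5 of 20 (3.25 to 4.93), INPPL1, a gene for an inositol lipid phosphatase, had 5 of 21 (3.02 to 4.74) and the deacetylase gene HDAC10 had 5 of 16 (3.20 to 4.07). RNF123, with 5 of 22, and GBA2, a gene for a glucosylceramidase, with 5 of 13, held as many, and GBA2 had members at introns 12, 13 and 14 in a row.

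**Figure D4:**
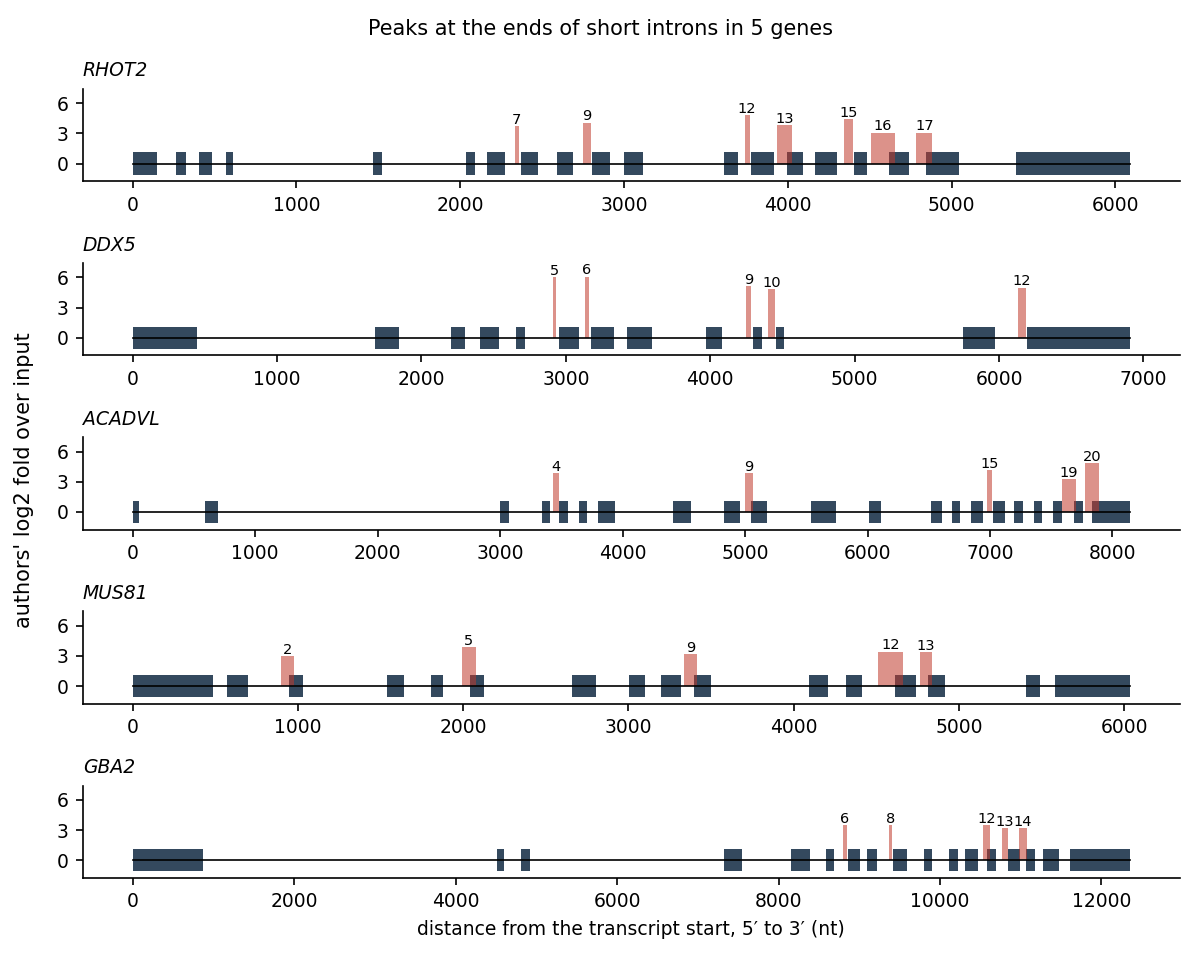
Maps of 5 genes with several members, drawn 5' to 3' with the distance from the transcript start in nt; dark boxes are exons, and red bars are member peaks at their true width, with the authors' log2 fold as height and the intron number above. RHOT2 holds 7 peaks and the other 4 genes 5 each; those of DDX5 lie between 4.87 and 6.09 and end before the exon.

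Gene lists put these members in the context of function, by count alone. Among all protein-coding genes, 1456 had an SF3B4 peak and a short intron, and 555 of these held a member, with a median log2 fold of 3.88 over 833 members. The cytosolic ribosomal protein genes, whose products build the ribosome with its RNA, had a member in 37 of 54, with 44 members and a median of 4.40. The leading ones were RPL6 (6.65), RPL17 (6.53), RPL21 (5.84) and RPS13 (5.71), and 27 of the 44 introns were annotated as retained.

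Genes of hnRNPs, abundant nuclear proteins that bind pre-mRNA, had a member in 12 of 17, with 20 members, a median of 4.40 and the highest values in HNRNPA1 (5.90), HNRNPA3 (5.88), HNRNPA2B1 (5.87) and HNRNPH1 (5.73). Aminoacyl-tRNA synthetases, which charge tRNAs, had a member in 8 of 12, with 18 members and a median of 4.26, led by VARS2 (5.50) and VARS (5.20). DNA replication and repair genes had a member in 7 of 8, with 14 members and a median of 3.85, led by POLE (6.05) and RECQL4 (5.24).

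Other lists had few members. The genes of SF3b and its U2 partners had a member in 1 of 8, SF3B3 (4.93), and the SR protein genes, whose products bind exonic splicing enhancers, in 1 of 7, SRSF3 (4.58). Proteasome subunit genes had one in 1 of 2, PSMC5 (4.58), and tubulins and actins in 2 of 4, ACTG1 (3.88) and TUBA1B (3.62). For each list, the second number counts only genes with an SF3B4 peak and a short intron. Any SF3B4 peak was present in 3 of 39 proteasome genes, 5 of 9 tubulins and actins, 9 of 20 SF3b and partner genes and 11 of 14 SR genes. It was present in 67 of 88 ribosomal protein, 17 of 24 hnRNP, 13 of 37 synthetase and 9 of 17 replication and repair genes. None of 12 marker genes of other tissues, among them ALB of liver and MYH7 of heart, had any SF3B4 peak. Of all 19936 protein-coding genes, 1761 had one. At that share few of 12 genes would have a peak, so their absence here says little. Transcript abundance was not measured here and its part in these counts was not tested.

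Few G4PID peaks lay near SF3B4 peaks of any kind. Of the 864 members, 2 (0.231%, 0.0635 to 0.840%) had one of the 270 G4PID peaks within 100 nt on the same strand, beside 0 of the 1971 peaks at longer introns and 4 of all 3660 SF3B4 peaks (0.109%, 0.0425 to 0.281%). The difference was not tested. Those of the members were the one in the 243 nt intron of NEAT1, the long non-coding RNA that scaffolds paraspeckles (log2 fold 3.10), and that in the 228 nt intron 6 of EIF4A2 (4.34).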

How the data were processed

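SF3B4 eCLIP peaks of HEK293T cells were analysed, with G4PID peaks beside them. The submitters' processing notes name STAR 2.7.0d and cutadapt 3.4 as tools and both hg38 and hg19 as builds. The sources used here do not give how peaks were called and filtered or how replicates were joined. In all, the authors deposited 1 list per antibody without a header, in which 1 column was read as the −log10 p-value and another as the log2 fold over input, from the column order usual for eCLIP and from the values. Positions fit hg38 and were set against GENCODE release 29. The midpoint was the mean of start and end, rounded down, and peaks went to the same-strand gene holding it, protein-coding first. Introns came from basic transcripts. Intron sequence was read from 34334 annotated transcripts laid on the genome, with 0 disagreeing bases.

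Tests were Fisher's exact and Cochran-Mantel-Haenszel without continuity correction, with Benjamini-Hochberg adjustment over 8 tests and a threshold of 0.05. They were tested on simulated data. Named genes were the 15 highest by fold, up to 12 with the most members (RNF123 and GBA2, equal to the last of these, and EIF4A2 were added after their values were seen), the 5 shortest introns, the 2 on each side of the length limit, list leaders, and members near G4PID peaks. The members and lists were chosen with earlier results of these data known. Python 3.11.15, numpy 2.4.6, scipy 1.17.1, pandas 2.3.3 and matplotlib 3.10.9 were used.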

Additional observations from a re-analysis of the deposited data

How the results depend on the processing

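No paired analysis was possible because each antibody has 1 list with no value per library, and for the same reason no replicate could be left out. All values here are odds ratios unless counts are named. Annotated retention kept its direction and its side of the threshold in 10 of 10 alternatives among short introns (1.91 to 2.75) and in 8 of 8 between short and longer introns with a peak (3.03 to 4.54). Peak position did so in 11 of 11 (1.01 to 1.16) without passing the threshold. The last intron comparison did so in 8 of 9 (0.499 to 0.596), the exception being 0.660 with a log2 fold of at least 4 and a −log10 p-value of at least 10.

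The share of sites with a peak was the least stable result. It was 0.843 with short introns up to 150 nt, 1.14 up to 350 nt, 0.953 with the longest intron of each site, 1.22 with all transcripts and 0.982 when any overlap with the window counted. Exon crossing turned to 1.10 with the 150 nt limit, 1.03 with all transcripts and 1.08 against introns over 250 and up to 1000 nt, none past the threshold. The share of peaks above the median fold was 1.05 with the 150 nt limit, 1.10 with 1 peak per gene, 0.817 for midpoints 10 to 60 nt upstream and 0.837 with all transcripts, the latter pair past the threshold (adjusted p = 0.0423 and 0.0406, Fisher's exact test). The motif comparison turned to 0.839 for CTAAC or CTGAC and 0.993 for CTNA. The members numbered 203 under the stricter peak threshold, 491 with the 150 nt limit and 418 with 1 peak per gene. The causes were not tested.

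Alternatives added after the data were seen left out introns under 40 nt, used strata of gene and length, took the retained-intron type alone, took coding introns alone for the last intron (0.503) and used 7 length classes. A form with 1 site per gene was not run for the comparisons inside genes, and the fold comparison is void under the stricter threshold, where every peak is above the median. Unknown depth limits all shares: a site without a peak is not shown to be unbound.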
